A study of Sus scrofa with 32 samples.

Results

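VCAM1, vascular cell adhesion molecule 1, was followed in the testis transcriptome of 32 male pigs. The gene was found by its Ensembl identifier, ENSSSCG00000006862, and is 1 of 25322 gene identifiers in the deposited count tables. It was chosen by its values in earlier results of these data, the AS difference and the androstenone slopes with and without sow, so its values by AS group, androstenone and sow are given as a description, with no test. The pigs were Danish crossbreds of Duroc with Landrace/Yorkshire, slaughtered near 100 kg. AS stands for androstenone and skatole, the compounds behind boar taint, and the labels place each pig in a High or a Low AS group without giving the limit between them. Of the High AS pigs, 7 ate chicory and 10 the control diet, and of the Low AS pigs, 7 ate chicory and 7 the control diet. The chicory feed held 15% chicory and was given for 3 days before slaughter. A further pig on chicory had no AS group and entered only the analyses that need none.

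VCAM1 is a membrane protein of the immunoglobulin superfamily. It is best known from endothelium activated by inflammatory cytokines, where it binds the integrins VLA-4 and alpha4beta7 of leukocytes and so holds them at the vessel wall. In the testis, Leydig cells lie between the tubules beside blood vessels and macrophages. They make testosterone and, in boars, androstenone, through enzymes that include CYP17A1, and they secrete the peptide hormone INSL3. KDR, the main VEGF receptor, and TIE1, a receptor of the angiopoietin system, mark endothelium.

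The libraries fell into 2 sets by their names. In 24 plain libraries the genes had 1855174 to 5993637 counts, and in 8 numbered libraries, whose names carry an additional number, 10585625 to 20349500. The numbered libraries shared 1 i7 index, and 6 of the 8 came from High AS pigs and 2 from Low AS pigs. Of 13025 genes tested, 3794 differed between the sets (29.1%, edgeR quasi-likelihood test, Benjamini-Hochberg adjusted p under 0.05). VCAM1 was not among them, with a log2 difference of -0.40 (SE 0.28, adjusted p = 0.289, numbered minus plain). INSL3 was lower in the numbered libraries by a log2 difference of -1.55 (adjusted p = 0.00182) and CYP17A1 by -1.70 (adjusted p = 0.000621), while KDR was higher by 0.65 (adjusted p = 0.0495). TIE1 had 0.53 (adjusted p = 0.0638). Set was a term of each main model, and correlations were computed within a set. The test of set itself was added after the data were seen. Levels are given as CPM, the counts of a gene scaled to library size with TMM factors, and log2 CPM has a prior count of 2.

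VCAM1 was detected in every pig, with 23 counts in Low AS chicory replicate 5 at the least and 599 in High AS control replicate 8 at the most. Its level ran from 5.20 CPM in Low AS chicory replicate 6 (95% exact Poisson interval 3.40 to 7.62) to 41.0 CPM in High AS chicory replicate 3 (32.9 to 50.5). The intervals cover counting error only, and the range over pigs was wider than the interval of any single pig. In High AS pigs the lowest, median and highest values were 8.77, 18.7 and 41.0 CPM, against 5.20, 14.0 and 26.8 CPM in Low AS pigs. High AS pigs averaged 21.7 ± 10.7 CPM (SD, n = 17) and Low AS pigs 14.1 ± 6.50 CPM (SD, n = 14). The groups overlapped over most of their range, but 5 High AS pigs stood above the highest Low AS pig.

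In the model with diet and library set, VCAM1 was higher in High AS than in Low AS pigs by 0.68 on the log2 scale (SE 0.25), a fold of 1.60. Across all genes this comparison called 0 of 13025 (0%), with 300 at an unadjusted p under 0.05. Leaving out 1 pig at a time kept the VCAM1 difference between 0.56 and 0.79. Earlier results set apart the libraries of High AS control replicate 3 and of Low AS chicory replicate 1, and with both left out the difference was 0.73 (SE 0.25). Within the plain libraries High AS pigs averaged 23.5 ± 10.9 CPM (n = 11) and Low AS pigs 14.5 ± 6.47 CPM (n = 12). Within the numbered libraries the averages were 18.5 ± 10.6 CPM in 6 High AS pigs and 11.5 ± 8.50 CPM in 2 Low AS pigs. The averages differed in the same direction in both sets, and both sets entered the choice of the gene. In the numbered set the Low AS pigs had 17.5 and 5.51 CPM. High AS pigs with 15.5, 15.3, 13.4 and 8.77 CPM lay below the first of these, and High AS control replicate 8 had 39.1 CPM. The size of the difference varied with the i7 index of the plain libraries. High and Low AS pigs averaged 21.4 and 18.1 CPM with i7_4 (n = 4 and 4) and 26.9 and 14.0 CPM with i7_2 (n = 5 and 3). With i7_1 the averages were 19.2 and 12.0 CPM (n = 2 and 5). With i7 index in place of library set the modelled difference was 0.57 (SE 0.26). Of the 4 genes set beside VCAM1, CYP17A1 had a log2 difference of 0.61 (SE 0.29, adjusted p = 0.988), INSL3 0.42 (SE 0.30, adjusted p = 0.988), KDR 0.44 (SE 0.24, adjusted p = 0.988) and TIE1 -0.04 (SE 0.21, adjusted p = 0.991).

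Whether VCAM1 moved with the steroid-making cells was described by adding the mean log2 CPM of the detected Leydig cell markers to the model. The AS difference of VCAM1 was then 0.39 (SE 0.18). With the mean of the endothelial markers in its place it was 0.62 (SE 0.22). In bulk tissue, fewer cells of a type and less RNA per cell cannot be told apart. The part of Leydig cell content in the AS difference was not tested.

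**Figure D1:**
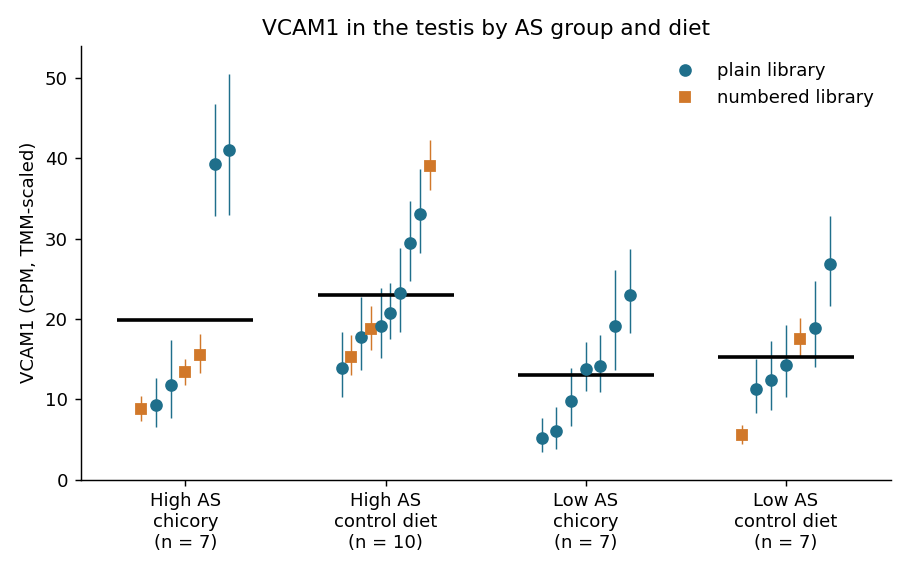
VCAM1 level of each pig (CPM, TMM-scaled, linear axis from 0) by AS group and diet; thin bars are exact 95% Poisson intervals, black lines are group means, and colour and shape give the library set. High AS pigs on chicory hold 2 pigs near 40 CPM and 5 at or below 15.5 CPM, while the highest Low AS pig is at 26.8 CPM.

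The 2 diets overlapped in VCAM1 within each AS group. High AS pigs on chicory had 8.77, 13.4 and 41.0 CPM as lowest, median and highest values, against 13.9, 19.9 and 39.1 CPM in High AS pigs on the control diet. Chicory-fed Low AS pigs had 5.20, 13.8 and 23.0 CPM, against 5.51, 14.2 and 26.8 CPM in Low AS pigs on the control diet. The log2 difference of chicory minus control was -0.29 (SE 0.24, 95% interval -0.79 to 0.20, adjusted p = 0.9999, edgeR), where 1 of 13025 genes was called (0.00768%). The AS difference on chicory minus that on the control diet was 0.05 (SE 0.49, adjusted p = 0.991, 0% of 13025 genes called and 473 at an unadjusted p under 0.05). The interval of that interaction, -0.96 to 1.05, allows differences as large as the AS difference itself in either direction. It was 0.52 (SE 0.54) in plain libraries alone and 0.42 (SE 0.56) with sow as a fixed block. Within High AS pigs the spread was wider on chicory (SD 14.1 CPM, n = 7) than on the control diet (SD 8.23 CPM, n = 10), and that difference in spread was not tested.

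VCAM1 was low in the pigs whose androstenone was recorded as 0. Androstenone ran from 0.67 to 7.77 mg/kg in High AS pigs and from 0 to 1.07 mg/kg in Low AS pigs. The 7 pigs above 2 mg/kg had 15.3 to 41.0 CPM of VCAM1 (24.3 ± 11.1, SD), and the 4 pigs recorded at 0 mg/kg had 5.20 to 12.4 CPM (9.66 ± 3.15, SD). VCAM1 was chosen by its androstenone slope, so the separation of these pigs is no test. The share of all genes that separate them is not given here. At concentrations between those of these pigs the levels were mixed. High AS control replicate 8 had 39.1 CPM at 1.46 mg/kg, and High AS chicory replicate 6 had 8.77 CPM at 1.43 mg/kg. The highest concentration, 7.77 mg/kg in High AS control replicate 10, came with 19.1 CPM. KDR also averaged lower at 0 mg/kg than above 2 mg/kg (5.12 ± 2.50 against 10.1 ± 3.79 CPM, SD). The averages were 633 against 1016 CPM for CYP17A1, 860 against 1036 for INSL3 and 3.57 against 3.80 for TIE1. Of the pigs at 0 mg/kg, Low AS control replicate 2 and Low AS chicory replicate 7 shared sow 1134. Both shared index i7_1 with Low AS chicory replicate 6. The part of sow and index was not tested.

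For each doubling of androstenone plus 0.5 mg/kg, VCAM1 was higher by 0.39 on the log2 scale (SE 0.12), a fold of 1.31. Over all genes 3 of 13199 were called along androstenone (0.0227%). The slope was 0.44 in the plain libraries (SE 0.12, n = 23) and 0.18 in the numbered libraries (SE 0.29, n = 8). Without the pigs at 0 mg/kg it was 0.27 (SE 0.15). With the Leydig cell mean added it was 0.24 (SE 0.08), and with the endothelial mean 0.36 (SE 0.10). The slope of CYP17A1 was 0.30 (SE 0.15), of INSL3 0.21 (SE 0.14), of KDR 0.06 (SE 0.13) and of TIE1 -0.03 (SE 0.10).

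**Figure D2:**
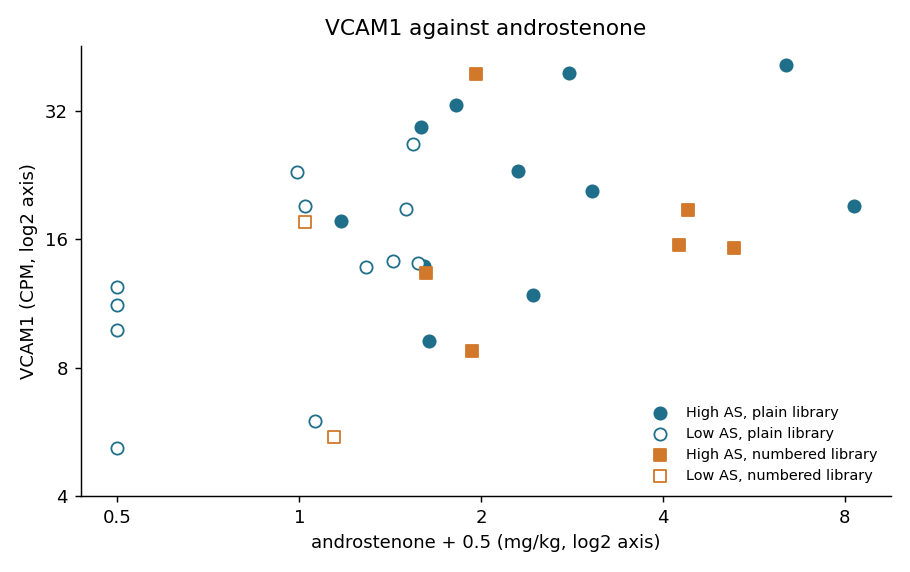
VCAM1 (CPM, log2 axis) against androstenone plus 0.5 mg/kg (log2 axis) for the 31 pigs with a concentration; filled symbols are High AS and open symbols Low AS pigs, circles plain and squares numbered libraries. The 4 pigs at 0 mg/kg lie at the left, all at or below 12.4 CPM, and the 7 pigs above 2 mg/kg all lie at or above 15.3 CPM.

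The sire's breeding value for androstenone and the carcass weight were not used to choose the gene. VCAM1 had a slope of 0.46 per unit of breeding value (SE 0.50, adjusted p = 0.759, edgeR, 0.0154% of 13009 genes called). In plain libraries alone the slope was 1.24 (SE 0.55, adjusted p = 0.884), and with i7 index in place of library set -0.58 (SE 0.66, adjusted p = 0.9998). The i7 index of the plain libraries followed the breeding value. It ran from -0.49 to -0.1 with i7_1, from -0.1 to 0.14 with i7_4 and from 0.14 to 0.36 with i7_2. Index and breeding value therefore cannot be told apart in these libraries. The breeding value itself correlated with log2 androstenone at r = 0.60 in the plain and 0.65 in the numbered libraries, so it is not independent of the concentration. Along carcass weight, with AS group as a term, the slope was 0.011 per kg (SE 0.026, adjusted p = 0.9999, 0% of 13413 genes called and 189 at an unadjusted p under 0.05). With no other term, VCAM1 correlated with carcass weight at r = 0.44 in the plain (n = 21) and -0.11 in the numbered libraries (n = 8).

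The labels name the sow of each pig, and 7 of 14 sows had pigs in both AS groups. Pigs of the same sow need not share a sire, since their breeding values differed in sow 930. The High AS pig of sow 1014 had 39.1 CPM, against 5.20 and 5.99 CPM in its Low AS pigs. In the same sow KDR was higher in the High AS pig by a log2 difference of 3.02, TIE1 by 2.01, INSL3 by 1.43 and CYP17A1 by 1.15, and the part of endothelial content in the VCAM1 difference was not tested. In sow 931 the High AS pigs had 39.3 and 23.2 CPM, against 18.8 CPM in the Low AS pig. In sow 1139 the values were 33.1 CPM in the High AS pig, against 23.0 and 17.5 CPM in the Low AS pigs.

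Sow 1109 had 8.77 CPM in its High AS pig, against 5.51 CPM in its Low AS pig, and sow 641 had 19.1 and 15.5 CPM in High AS pigs, against 14.1 CPM in the Low AS pig. In these 5 sows every High AS pig was above every Low AS pig. In sow 210, 2 of 3 High AS pigs were above both Low AS pigs, with 41.0, 18.7 and 13.4 CPM, against 14.2 and 13.8 CPM in Low AS pigs. Sow 930 ran the other way, with 13.9 CPM in its High AS pig, against 26.8 and 19.1 CPM in its Low AS pigs. VCAM1 was thus higher in High AS pigs on average in 6 of 7 sows. These differences had no term for diet or library set. In sow 1014 the High AS pig ate the control diet and both Low AS pigs ate chicory. In sow 1109 the High AS pig ate chicory and the Low AS pig the control diet.

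The mean difference within sows was 0.71 ± 1.02 on the log2 scale (SD over 7 sows). It was 0.37 over the other sows without High AS control replicate 8, the numbered library of sow 1014, whose Low AS pigs had plain libraries. In plain libraries alone 4 of 5 sows had the higher value in High AS pigs, with a mean of 0.49 ± 0.79. INSL3 was higher in High AS pigs in 4 of the 7 sows, CYP17A1 in 4, KDR in 4 and TIE1 in 1. With sow as a fixed block, the AS difference of VCAM1 was 0.80 (SE 0.28) and the androstenone slope 0.67 (SE 0.16), against 0.39 without the block.

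**Figure D3:**
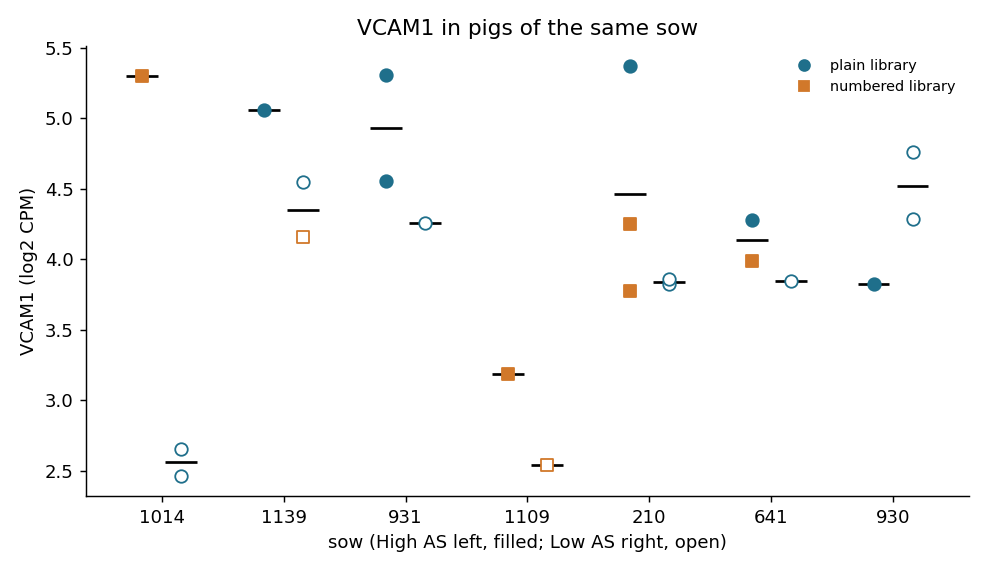
VCAM1 (log2 CPM) in the 7 sows with pigs of both AS groups, ordered by the difference; filled symbols at the left of each sow are High AS and open symbols at the right Low AS pigs, colour and shape give the library set, and black lines are means. The High AS mean lies above the Low AS mean in 6 sows and below it in sow 930.

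Across the 24 plain libraries VCAM1 correlated more with INSL3 and CYP17A1 than with KDR and TIE1. Its Pearson correlation in log2 CPM was 0.78 with INSL3 (Spearman 0.74) and 0.70 with CYP17A1 (Spearman 0.71). It was 0.36 with KDR (Spearman 0.38) and -0.02 with TIE1 (Spearman 0.05). Without the 2 libraries farthest from the median of the other gene, the values were 0.72, 0.69, 0.40 and -0.03 in the same order of genes. The mean correlation with the Leydig pair exceeded that with the endothelial pair by 0.57, and by 0.40 to 0.69 when each library was left out in turn. The Leydig pair correlated at 0.88 with each other and the endothelial pair at 0.25. Per plain library TIE1 had only 3 to 35 counts and KDR 7 to 116, against 1292 to 9106 for INSL3. The part of that precision in the gap was not tested. In the numbered libraries, KDR and TIE1 correlated at 0.60. These libraries share sows and a common scaling, and the correlations are given as a description.

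VCAM1 spanned a 7.89-fold range of CPM over the plain libraries, and INSL3 an 8.06-fold range. VCAM1 was higher by 0.72 on the log2 scale for each log2 unit of INSL3 (SE 0.13). With KDR and TIE1 held fixed, the partial correlation with INSL3 was 0.74 and that with CYP17A1 0.65. With INSL3 held fixed, the partial correlation was 0.12 for KDR and 0.01 for TIE1. In the numbered libraries the endothelial genes had higher values, 0.56 for KDR and 0.68 for TIE1 with INSL3 held fixed. There INSL3 had 0.93 and CYP17A1 0.71 with KDR and TIE1 held fixed. After the line on INSL3 was removed within each library set, the VCAM1 residual averaged 0.13 ± 0.45 in the 17 High AS pigs and -0.16 ± 0.40 in the 14 Low AS pigs (± SD).

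The 8 numbered libraries lie outside the set for which these correlations were chosen. Their VCAM1 values were among those that chose the gene, so the tests here are not independent of that choice. In these libraries the correlation with INSL3 was 0.92 (exact permutation test over 40320 pairings, two-sided p = 0.00238, adjusted over the 4 genes of this set 0.00952). By rank it was 0.67 (exact p = 0.0831, adjusted 0.23). With CYP17A1 it was 0.80 (exact p = 0.024, adjusted 0.0479) and by rank 0.43 (exact p = 0.299). Sows 210 and 1109 gave 2 of these libraries each, and both pigs of sow 1109 were the lowest of the set in VCAM1 and in INSL3. With 1 mean per sow (n = 6) the correlation was 0.92 with INSL3 (exact permutation p = 0.0611) and 0.79 with CYP17A1 (exact permutation p = 0.0597), so neither passed the threshold. The relation with CYP17A1 rested on High AS control replicate 8 and Low AS control replicate 7, since it was 0.05 without both, whereas the correlation with INSL3 was then still 0.77. The value for KDR was 0.51 (exact p = 0.241), by rank -0.19, and it turned to -0.65 without High AS control replicate 8. For TIE1 it was 0.67 (exact p = 0.066), by rank 0.62, and 0.35 without the same library. The gap between the Leydig and the endothelial pair was 0.27 here, and from -0.003 to 0.97 with each library left out, so the order of the pairs rested on single libraries in this set.

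**Figure D4:**
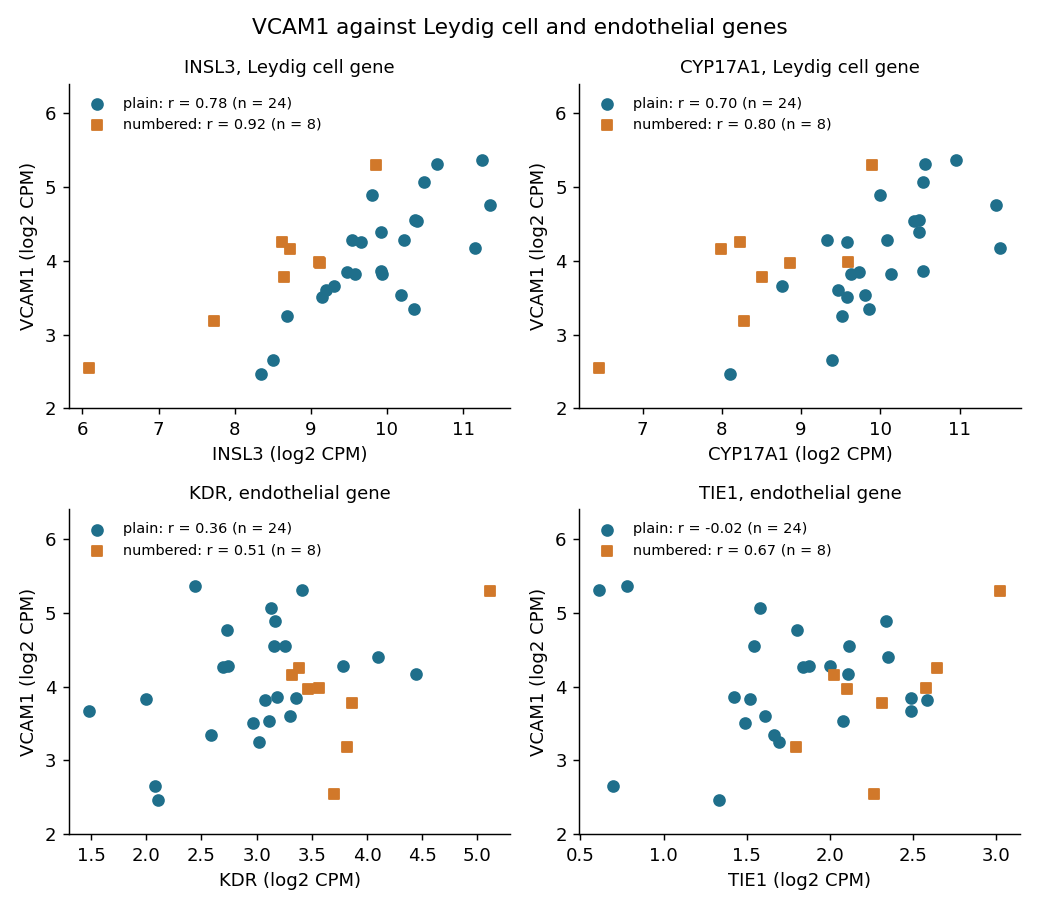
VCAM1 against INSL3, CYP17A1, KDR and TIE1 (all in log2 CPM), with 1 point per pig; circles are the 24 plain and squares the 8 numbered libraries, and each panel gives Pearson r by set. The plain libraries form a rising band for INSL3 (0.78) and CYP17A1 (0.70), a loose one for KDR (0.36) and none for TIE1 (-0.02).

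The genes most like VCAM1 were ranked by Pearson correlation over the plain libraries. Among 9529 genes with a symbol, INSL3 ranked 2, CYP17A1 22, KDR 764 and TIE1 5127. The leading gene was AIG1, androgen-induced 1, a lipid hydrolase (0.80, and 0.66 in the numbered libraries). After INSL3 came SULT1C3, a sulfotransferase (0.75, numbered 0.87), TMEM205, a membrane protein (0.75, numbered 0.86), and DHRS4, a short-chain dehydrogenase (0.75, numbered 0.80). SRD5A1, steroid 5-alpha-reductase, had 0.75 (numbered 0.80) and LHCGR, the receptor of luteinizing hormone, 0.75 (numbered 0.78). ATG4A, an autophagy protease, had 0.74 (numbered 0.90), GSTO1, a glutathione transferase, 0.74 (numbered 0.84), and DHRS3, a retinal reductase, 0.73 (numbered 0.86). All 10 had a correlation above 0.6 in the numbered libraries as well, a level reached by 5.58% of 14457 genes there.

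At the other end stood DIP2C (-0.68, numbered -0.38), CADPS2, a protein of vesicle release (-0.64, numbered -0.10), TBX5, a T-box transcription factor (-0.63, numbered 0.20), SEMA4D, a semaphorin (-0.61, numbered -0.23), and CUBN, the endocytic receptor cubilin (-0.61, numbered -0.28). Of these 5, 4 were negative in the numbered libraries, where 53.4% of 14457 genes were positive. The median correlation of all genes with VCAM1 was 0.006 in the plain and 0.034 in the numbered libraries, and 2.12% and 9.83% of genes exceeded 0.5 there. Both sets exceeded 0.5 for 177 genes (1.22%).

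Of 15 Leydig cell markers listed, 9 were measured, since STAR, HSD3B1, CYP19A1, FDX1 and POR had no identifier under their symbol and PRLR had too few counts. Their median correlation with VCAM1 was 0.68 in the plain and 0.78 in the numbered libraries, and 7 of 9 exceeded 0.5 in each. INSL3 and LHCGR led. CYP11A1, which starts steroid synthesis by cleaving cholesterol, had 0.70 and CYB5A, the cytochrome b5 that assists CYP17A1, 0.68. SCARB1, which takes up cholesterol from lipoproteins, had 0.67 and FDXR, which passes electrons to FDX1 on their way to CYP11A1, 0.60. NR5A1, a transcription factor of steroidogenic cells, had 0.45, and HSD17B3, which makes testosterone from androstenedione, had 0.10.

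Of 23 endothelial markers 14 were measured, with a median of 0.35 in the plain and 0.52 in the numbered libraries. In the plain libraries 1 exceeded 0.5, the lectin CLEC14A (0.64), and in the numbered libraries 8 did. EGFL7, an endothelial secreted factor, followed with 0.46, and FLT1, a VEGF receptor, was lowest with -0.30. CDH5 and VWF had no identifier and were not analysed here. The mean log2 CPM of the Leydig list ran from 5.32 to 7.84 in High AS pigs and from 4.79 to 7.90 in Low AS pigs, and that of the endothelial list from 2.29 to 4.16 in High AS pigs and from 1.94 to 3.32 in Low AS pigs. None of the 23 measured genes of both lists was called in the AS comparison, where 0% of all genes were, or in the androstenone comparison, where 0.0227% were.

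The medians of the remaining cell types lay nearer to that of all genes in the plain libraries. The 7 macrophage markers measured of 13 had a median of 0.14, led by C1QA, a complement subunit (0.57), and MSR1, a scavenger receptor (0.35), with the integrin ITGAM lowest (0.03). In the numbered libraries that median was 0.40. The 8 fibroblast and pericyte markers had a median of 0.20, with the collagen COL3A1 at 0.55, the proteoglycan DCN at 0.52 and PDGFRB at -0.16. The 8 peritubular markers had 0.06 (TAGLN 0.32, CNN1 0.19, ACTG2 -0.07) and the 9 Sertoli cell markers 0.06 (GATA4 0.23, DHH -0.15). The 4 lymphocyte markers had 0.06 (CD4 0.22, PTPRC 0.08, CD2 -0.19). Germ cell lists were near 0, with 0.02 for 7 genes of spermatogonia (DMRT1 0.23, STRA8 0.20, KIT -0.24), -0.10 for 9 of spermatocytes (TEX101 0.16, DMC1 0.12, SYCP3 -0.33) and -0.09 for 10 of spermatids (PRM2 0.14, TSSK6 0.03, ACRV1 -0.28). None of the 4 mesothelial markers had an identifier.

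No binding partner of VCAM1 measured here exceeded a correlation of 0.5 with it in the plain libraries. ITGA4, the alpha chain of its main leukocyte receptor, had 237 counts over all 32 pigs and a correlation of 0.41 in the plain and 0.05 in the numbered libraries. ITGB1, the beta chain that pairs with it in VLA-4, had 0.14 and 0.13, and ITGB7, which pairs with it in gut-homing cells, 0.25 and 0.01. ITGA9 had too few counts, and ITGAD had no identifier. Ezrin (EZR), radixin (RDX) and moesin (MSN), which tie the tail of VCAM1 to the actin cortex, had 0.45, 0.29 and 0.42 in the plain libraries, and 0.19, 0.26 and 0.77 in the numbered ones. ADAM17, the protease that sheds VCAM1 from the membrane, had -0.04 and 0.70.

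Among 10 other adhesion molecules the median was 0.19 in the plain libraries, with PECAM1 of endothelial junctions (0.42) and JAM2 (0.39) highest and JAM3 (-0.18) lowest. ICAM1, the other integrin ligand best known from activated endothelium, had 0.27, with only 159 counts over all 32 pigs. Of 14 cytokines and receptors that induce VCAM1, 6 were measured, all of them receptors, with a median of 0.26. The TNF receptor TNFRSF1B had 0.50, the interferon receptor IFNGR1 0.32 and IL13RA1 0.00. TNF, IL1B and IFNG had no identifier under their symbol. The 14 genes measured of the NF-kB pathway had a median of 0.10, with the inhibitor TNFAIP3 (0.50, numbered 0.77) and NFKBIB (0.36) highest and the kinase CHUK (-0.34) lowest. In the numbered libraries their median was 0.23 and 4 of 14 exceeded 0.5, led by the subunit REL (0.93, plain 0.14), with TNFAIP3, the chemokine CCL2 (0.75, plain 0.14) and the kinase subunit IKBKG (0.53, plain 0.27). No gene of these lists was called by AS group, androstenone, diet or breeding value, where at most 0.0227% of all genes were.

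**Figure D5:**
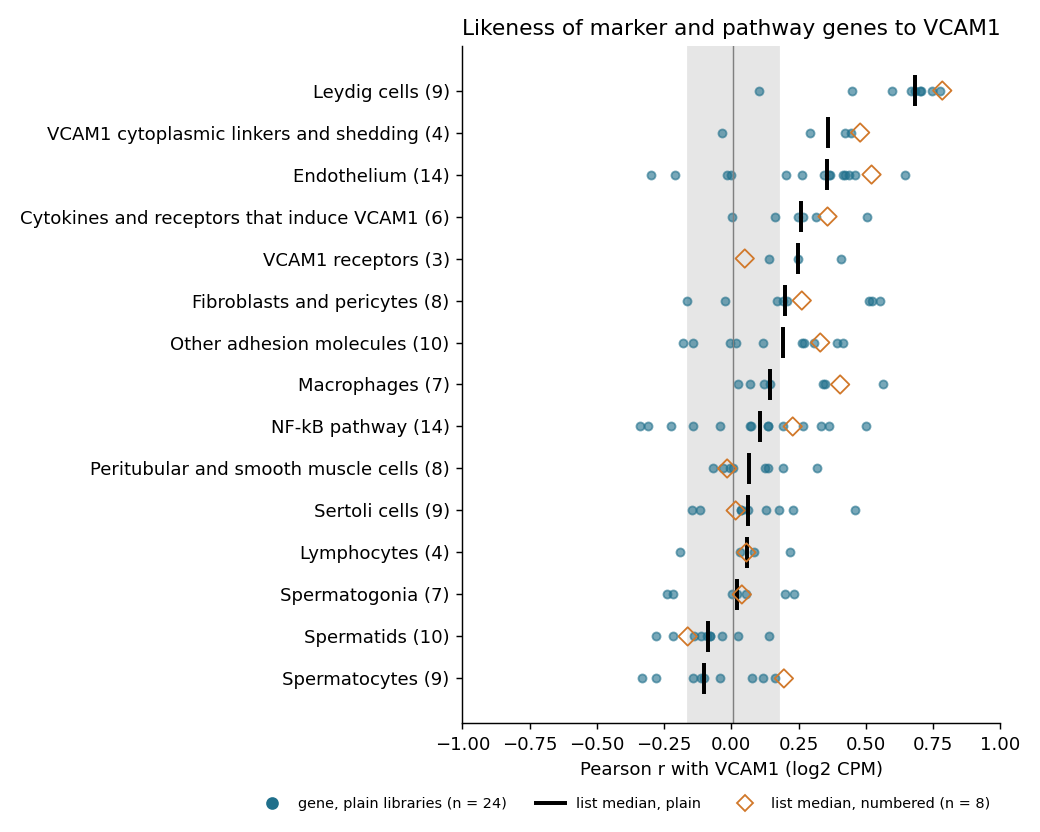
Pearson correlation with VCAM1 of each measured gene of 15 lists (points, 24 plain libraries), with the list median in plain (black bars) and in 8 numbered libraries (open diamonds); the grey band holds the middle of all genes in plain libraries, between the lower and upper quartiles, and the number measured is in brackets. The Leydig list stands highest with medians of 0.68 and 0.78, and germ cell lists lie near 0 in the plain libraries.

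Measures of the libraries themselves correlated less with VCAM1 than INSL3 and CYP17A1 did. Its correlation with the log of the total count was -0.17 in the plain and -0.34 in the numbered libraries, and that with the share of reads in no annotated gene 0.34 and 0.27. The part of these in the results was not tested. None of the neighbouring genes in the RefSeq table for pig overlaps VCAM1, and EXTL2 beside it had a correlation of -0.18 with it in the plain libraries.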

How the data were processed

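The deposited tables hold whole-number counts per Ensembl gene identifier, 1 table per pig, which the authors did not normalize. RNA went through a TruSeq stranded mRNA kit, per the labels' protocols. The submitters' processing notes name HTSeq 0.6.0, SAMtools 1.3.1, STAR, cutadapt 1.8.1 and Trimmomatic 0.33, without their roles. The build, annotation release and strand setting are not given in the sources used here. No coordinates are printed for that reason, and antisense reads cannot be told apart. The 5 closing rows of reads given to no gene, 37.4% to 50.7% of reads, were left out.

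VCAM1, its comparison genes and the marker lists were chosen with earlier results of these data known. Symbols came from a table that named 11804 of 25322 identifiers. Counts were fitted over all genes that passed filterByExpr with edgeR 4.0.16 (TMM, quasi-likelihood F test, Benjamini-Hochberg adjustment, R 4.3.3) with diet and library set as terms. Androstenone entered as log2(concentration + 0.5 mg/kg). Correlations used log2 CPM with a prior count of 2 over genes that passed the filter. Permutation p-values for the plain libraries, which chose the comparison, are not reported. Genes named were VCAM1, the 4 comparison genes, the 10 highest and 5 lowest correlations, detected receptors, linkers and the sheddase, and the 2 highest and 1 lowest of each list, with further members named after their values were seen. The value of 1 list member is not reported here. Alternatives used DESeq2 1.42.0 and limma 3.58.1. The fits were tested on simulated data. Among 108 pairs of libraries within groups none agreed within sampling noise. Each pig counted as 1 replicate, and skatole was not analysed here. Depth was 1855174 to 20349500 counts per library, with a median of 4061083.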

Additional observations from a re-analysis of the deposited data

Results flagged for a closer look

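Among 20 sets of values, VCAM1 and the 4 comparison genes in 4 groups, 2 held a pig far from the rest of its group, where chance flags about 1 in 20. No VCAM1 value was among them. INSL3 was 2623 CPM in Low AS control replicate 5, and the next pig of its group had 1169 CPM. CYP17A1 was 2929 CPM in High AS control replicate 5, and the next pig of its group had 1484 CPM. VCAM1 was 26.8 CPM in that Low AS pig, the highest of its group, and 17.7 CPM in that High AS pig.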

How the results depend on the processing

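The AS difference of VCAM1 stayed positive in 17 alternatives (0.39 to 1.09) and the androstenone slope in 21, which include ranks and untransformed concentrations on other scales. With carcass weight as a term, the AS difference was 0.52 (SE 0.29) and the androstenone slope 0.35 (SE 0.14). Added after the data were seen, fits to the same 29 pigs without weight as a term gave 0.57 and 0.34. The library set term was tested then too. Chicory minus control stayed negative (-0.43 to -0.12). The interaction ran from -0.14 to 0.52 and turned to -0.14 with limma voom, -0.049 without the library set term, -0.026 with i7 index in its place and -0.12 with sow as a random effect. The breeding value slope turned to -0.58 with i7 index and was 1.24 in plain libraries alone. In those libraries the index followed the breeding value, so their parts in the slope cannot be told apart, and the cause was not tested. With deviations from sow means (19 plain libraries), the correlation with VCAM1 was 0.58 for CYP17A1, 0.038 for KDR and -0.50 for TIE1. For TIE1 it was 0.11 over 32 libraries centred by set. With 1 mean per sow, added after the data were seen, the numbered correlations with INSL3 (0.92) and CYP17A1 (0.79) no longer passed over 6 sows. With each pig left out, plain TIE1 ran from -0.22 to 0.17, numbered CYP17A1 from 0.60 to 0.87, KDR from -0.65 to 0.64 and TIE1 from 0.35 to 0.84. Over all genes the androstenone fit called 0 to 14 genes, against 3, and the breeding value fit 0 to 17, against 2. Replicate numbers follow accession order and pair no pigs, so sow served as the block, except for the breeding value, which is nearly nested in sow and was not run so. At 23 to 599 counts per pig, VCAM1 is limited by the spread between pigs more than by depth.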
